A study of Mus musculus with 12 samples.

Results

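Lysine acetylation of histones is written by acetyltransferases, erased by deacetylases and read by bromodomain and YEATS domain proteins, and the genes for these proteins were followed here in livers of the NICD1/Akt mouse model of cholangiocarcinoma (CCA). Members were the protein-coding genes whose symbol begins with that of a histone deacetylase, sirtuin, acetyltransferase or acetyl-lysine reader. The symbols were Hdac, Sirt1 to Sirt7, Kat2 to Kat8, Ep300, Crebbp, Ncoa1 to Ncoa3, Hat1, Brd, Brpf, Brwd, Atad2, Mllt1, Mllt3, Trim24, Trim28 and Trim33. Members also had to reach 0.5 CPM (read counts scaled by library size and by the TMM factors described below) in at least 3 of 12 libraries. Of 21807 gene IDs in the count tables, 50 matched and all 50 reached that level. Brd3os, the opposite-strand neighbour of Brd3, matched by its symbol alone and is not an acetylation gene. The other 49 comprised 13 writers, 18 erasers and 18 readers.

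NICD1/Akt livers were C57BL/6J livers labelled as CCA tumor, taken 3 weeks (libraries 1, 2 and 3) or 2 weeks (libraries 33, 34 and 35) after hydrodynamic tail vein injection (HTVi) of plasmids for the Notch1 intracellular domain (NICD1, 10 µg) and myristoylated Akt (myr-AKT, 10 µg) with the Sleeping Beauty transposase. Controls were livers of wild-type C57BL/6J mice of the 3-week stage (libraries 10, 11 and 12) and of the 2-week stage (libraries 30, 31 and 32). Their labels also count the weeks from HTVi. The described protocol names male mice, 5 weeks old at injection. The Y-linked RNA of most 2-week libraries, given below, does not bear out male sex. HTVi drives plasmid DNA mainly into hepatocytes, and the Sleeping Beauty transposase inserts it into the genome of only part of them, so the tissue is a mixture of transfected and other cells. Whether a group's 3 libraries stem from different mice is not stated. The p-values then describe variation among libraries, which may be technical.

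Several features of the libraries bear on the values below. Total counts were 13136892 to 19594839 per library. Notch1 and Akt1, whose gene counts may hold both transgene and endogenous reads, summed to 918 to 1261 CPM in NICD1/Akt livers against 119 to 128 CPM in controls at 3 weeks, and to 386 to 1129 CPM in NICD1/Akt livers against 140 to 488 CPM in controls at 2 weeks. The highest 2-week control value belonged to library 32, which also held 2046 CPM over 9 biliary markers where the other 2-week controls held 87.6 and 89.5 CPM. Library 35 stood apart among the 2-week NICD1/Akt livers, with 4736 CPM of biliary markers against 1184 and 1375 CPM in its group. RNA of 4 Y-linked genes summed to 126 to 138 CPM in NICD1/Akt livers and 225 to 238 CPM in controls at 3 weeks, to under 1 CPM in 5 of the 6 libraries of 2 weeks and to 135 CPM in library 32. Stage and Y-linked RNA therefore went together in all libraries but library 32. Their parts in comparisons of 3 with 2 weeks were not separated. Nor were they where 3-week NICD1/Akt livers are set against all 6 controls, which pool both stages and include library 32.

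Acetyl groups neutralise the positive charge of histone tails, and acetylated tails are docking sites for readers at active enhancers and promoters. Writers take the acetyl group from acetyl-CoA. Class I, II and IV deacetylases (HDACs) are zinc-dependent enzymes, whereas sirtuins consume NAD, which ties both ends of the cycle to metabolism. Several members act mainly outside chromatin, such as the mitochondrial sirtuins and the tubulin deacetylase Hdac6. NICD1 joins the DNA-binding protein RBPJ to activate Notch targets.

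In livers 3 weeks after injection, histone acetylation genes moved in both directions and to much the same extent as the transcriptome. With edgeR's quasi-likelihood test, 18 of 50 members (36%) were higher and 14 (28%) lower in NICD1/Akt livers at an adjusted p under 0.05, and the background over 13408 genes tested was 38.9% higher and 33.1% lower. The median log2 fold change was 0.05 over members and 0.06 over all genes tested. Readers had 8 members higher and 5 lower of 18, erasers 6 higher and 3 lower of 18, and writers 3 higher and 6 lower of 13. Fold changes are relative to TMM scaling, which sets libraries to a common level on the premise that most genes do not differ. Over all 12 libraries, its factors were 1.35 to 1.49 in NICD1/Akt livers and 0.78 to 0.80 in controls at 3 weeks. These factors gave the CPM. The fold changes of a stage used factors of its own 6 libraries, so they can differ slightly from ratios of the CPM. With totals alone as the scale, the median of all genes shifted by 0.70 on the log2 scale, 40 members were higher and 0 lower, and the share of higher genes among all calls was 87.6% in place of 54.1%. The direction of a fall named below thus holds relative to the other genes of the library. The same holds for CPM values said to lie above or below those of controls.

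**Figure D1:**
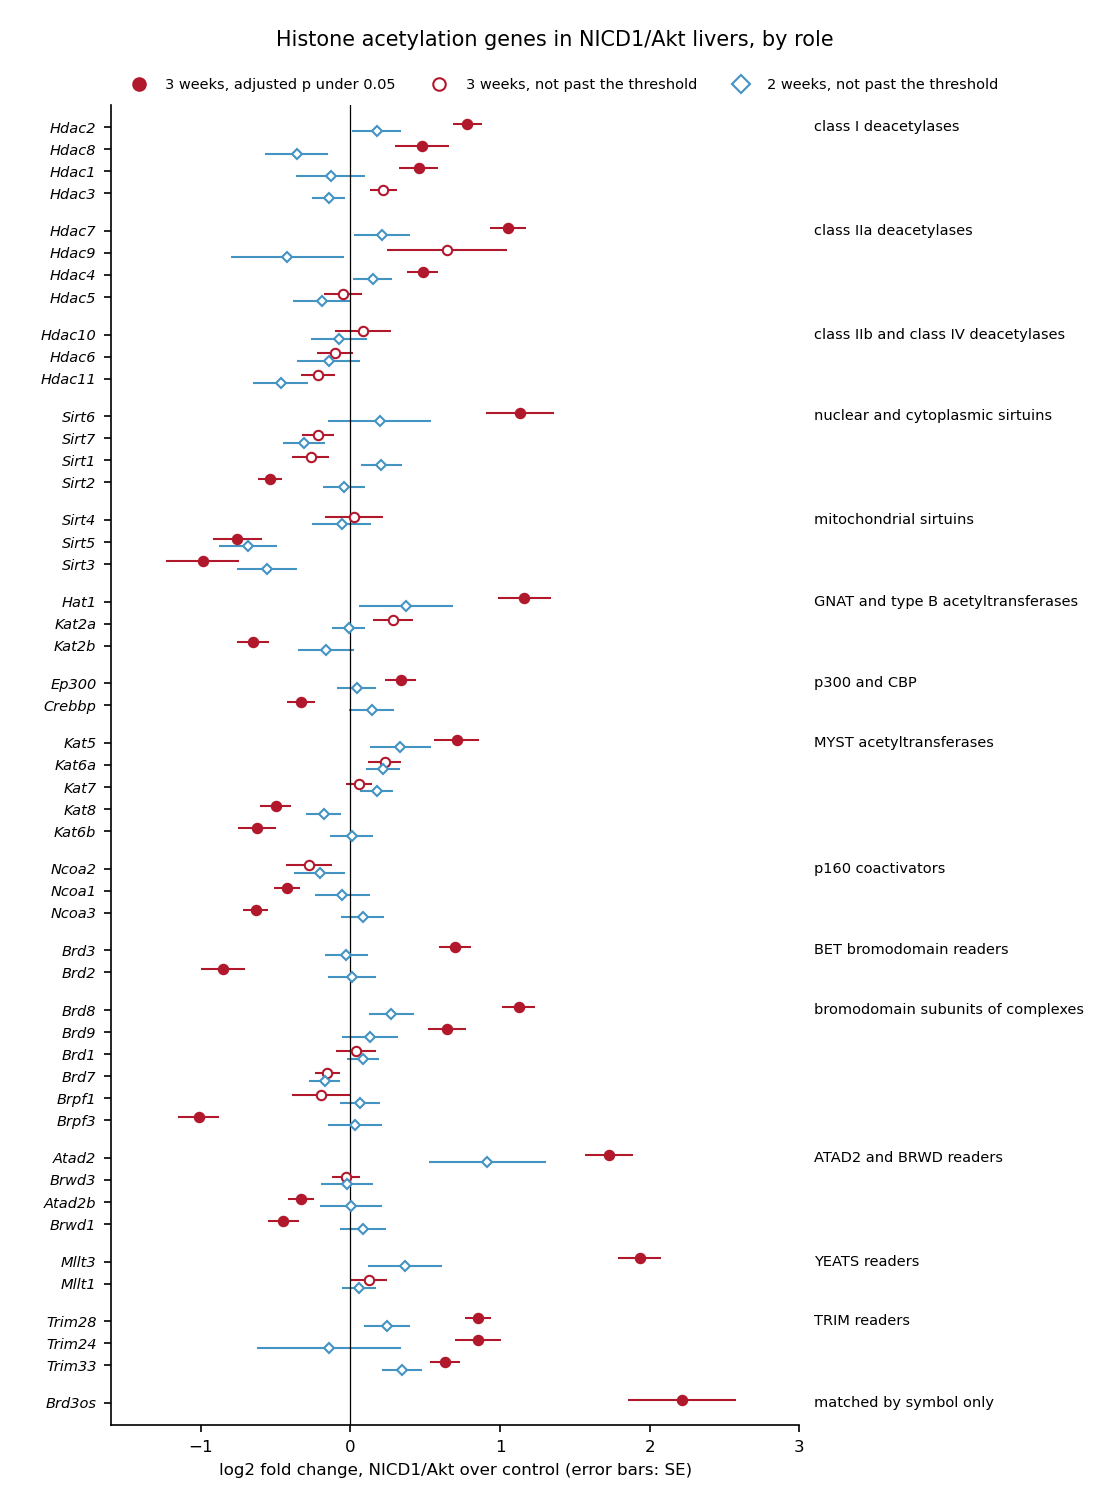
Log2 fold changes (x axis, NICD1/Akt over control) of 49 members, grouped by role. Red circles with SE are the 3-week stage, filled where the adjusted p was under 0.05 (over all 50 members 18 higher and 14 lower on the TMM scale, against 40 and 0 with totals alone as the scale). Blue diamonds are the 2-week stage, where 0 of the 49 members tested passed. Most roles hold members on both sides of 0 at 3 weeks.

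Levels differed widely between members. Per kilobase of exon, the median over 12 libraries was highest for Kat2b (20.3 CPM per kb), Brd2 (20.2 CPM per kb) and Trim28 (19.0 CPM per kb). Sirt2 (12.8 CPM per kb), Hdac11 (12.4 CPM per kb) and Sirt3 (10.03 CPM per kb) were also among the more abundant members. Atad2 (0.66 CPM per kb), Mllt3 (0.53 CPM per kb), Brd3os (0.36 CPM per kb) and Hdac9 (0.077 CPM per kb) were lowest, so 3 of the 4 least abundant members were among those that rose at 3 weeks, Hdac9 being the exception.

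Atad2, an AAA ATPase with a bromodomain that is known in human tumors as a coactivator of E2F and MYC, had 24.1, 31.6 and 25.2 CPM in NICD1/Akt livers and 7.67, 8.36 and 10.4 CPM in controls at 3 weeks. At 2 weeks it had 11.6, 9.76 and 21.2 CPM in NICD1/Akt livers and 5.52, 6.49 and 10.8 CPM in controls. Every 3-week NICD1/Akt library lay above all 6 controls, whereas at 2 weeks library 35 was high and the groups overlapped through library 32. The log2 fold change at 3 weeks was 1.73 (SE 0.16, adjusted p = 2.95e-05). At 2 weeks it was 0.92 (SE 0.39, adjusted p = 0.52). Genes of dividing cells, such as Mki67 and Top2a, were also highest in libraries 2, 35 and 32 of their groups, summing to 352 to 487 CPM in NICD1/Akt livers against 49.5 to 67.2 CPM in controls at 3 weeks, to 386 CPM in library 35 and to 152 CPM in library 32. Their part in the Atad2 result was not tested. In bulk liver, more cells expressing a gene and more RNA per cell cannot be told apart, which holds for every member.

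The close relatives of Atad2 did not share its rise. Atad2b, its paralog, had 29.6, 28.3 and 30.04 CPM in NICD1/Akt livers and 39.4, 38.0 and 42.7 CPM in controls at 3 weeks, with no overlap, and fell on the TMM scale by 0.33 (SE 0.09, adjusted p = 0.0077). Brwd1, a WD-repeat protein with a pair of bromodomains, had 50.8, 51.4 and 47.6 CPM in NICD1/Akt livers and 69.0, 83.6 and 69.3 CPM in controls. Its log2 fold change was -0.45 (SE 0.10, adjusted p = 0.0038), and both Atad2b and Brwd1 turned positive with totals alone as the scale. Neither call held against all 6 controls, where Atad2b gave -0.12 (adjusted p = 0.71) and Brwd1 -0.19 (adjusted p = 0.59). Brwd1 had 43.3, 45.8 and 38.2 CPM in NICD1/Akt livers and 46.6, 33.02 and 40.8 CPM in controls at 2 weeks. X-linked Brwd3 gave -0.03 (SE 0.09, adjusted p = 0.79). Within libraries, the ratio of Atad2 to Atad2b CPM, which no scaling factor touches, was 0.81 to 1.12 in NICD1/Akt livers and 0.19 to 0.24 in controls at 3 weeks. Such ratios are not corrected for gene length and are read only between libraries.

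Mllt3 (AF9), a YEATS domain reader of the complexes that release paused RNA polymerase II, rose most among acetylation genes at 3 weeks. It had 13.6, 15.5 and 16.4 CPM in NICD1/Akt livers and 3.88, 4.44 and 4.58 CPM in controls at 3 weeks, and 6.37, 6.51 and 10.3 CPM in NICD1/Akt livers and 6.25, 6.13 and 5.79 CPM in controls at 2 weeks. The 3-week NICD1/Akt libraries were the highest 3 of 12 and the 3-week controls the lowest 3. Against all 6 controls Mllt3 gave 1.55 (adjusted p = 0.00038), less than Atad2 with 1.72 (adjusted p = 0.00044). The log2 fold change was 1.93 (SE 0.15, adjusted p = 9.22e-06) at 3 weeks and 0.36 (SE 0.25, adjusted p = 0.54) at 2 weeks, and the difference between these effects was 1.46 (SE 0.28, adjusted p = 0.0058). Its paralog Mllt1 (ENL) had 33.1 to 39.7 CPM in NICD1/Akt livers and 31.9 to 41.5 CPM in controls at 3 weeks, a log2 fold change of 0.12 (SE 0.12, adjusted p = 0.38). The ratio of Mllt1 to Mllt3 was 2.42 to 2.53 in NICD1/Akt livers and 7.18 to 10.7 in controls at 3 weeks. Brd3os had 1.70, 2.06 and 2.56 CPM in NICD1/Akt livers and 0.43, 0.70 and 0.33 CPM in controls at 3 weeks, a log2 fold change of 2.22 (SE 0.36, adjusted p = 0.00065). Whether its reads were counted by strand was not settled, so they cannot be told apart from those of Brd3.

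Among zinc-dependent deacetylases, the rises were in class I and class IIa. Hdac7, a class IIa enzyme that shuttles out of the nucleus on signals and binds MEF2 factors, had 22.3, 20.8 and 18.8 CPM in NICD1/Akt livers and 10.8, 10.01 and 11.6 CPM in controls at 3 weeks. At 2 weeks it had 22.5, 16.9 and 21.4 CPM in NICD1/Akt livers and 16.6, 14.99 and 21.2 CPM in controls. The 3-week controls were the lowest 3 libraries of the 12, and NICD1/Akt livers of 3 weeks overlapped both 2-week groups. Its log2 fold change was 1.06 (SE 0.12, adjusted p = 8.62e-05) at 3 weeks and 0.21 (SE 0.19, adjusted p = 0.61) at 2 weeks. Set against all 6 controls, which pool both stages without a stage term, it was 0.54 with an adjusted p of 0.082. The call at 3 weeks thus rests on the controls of that stage.

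**Figure D2:**
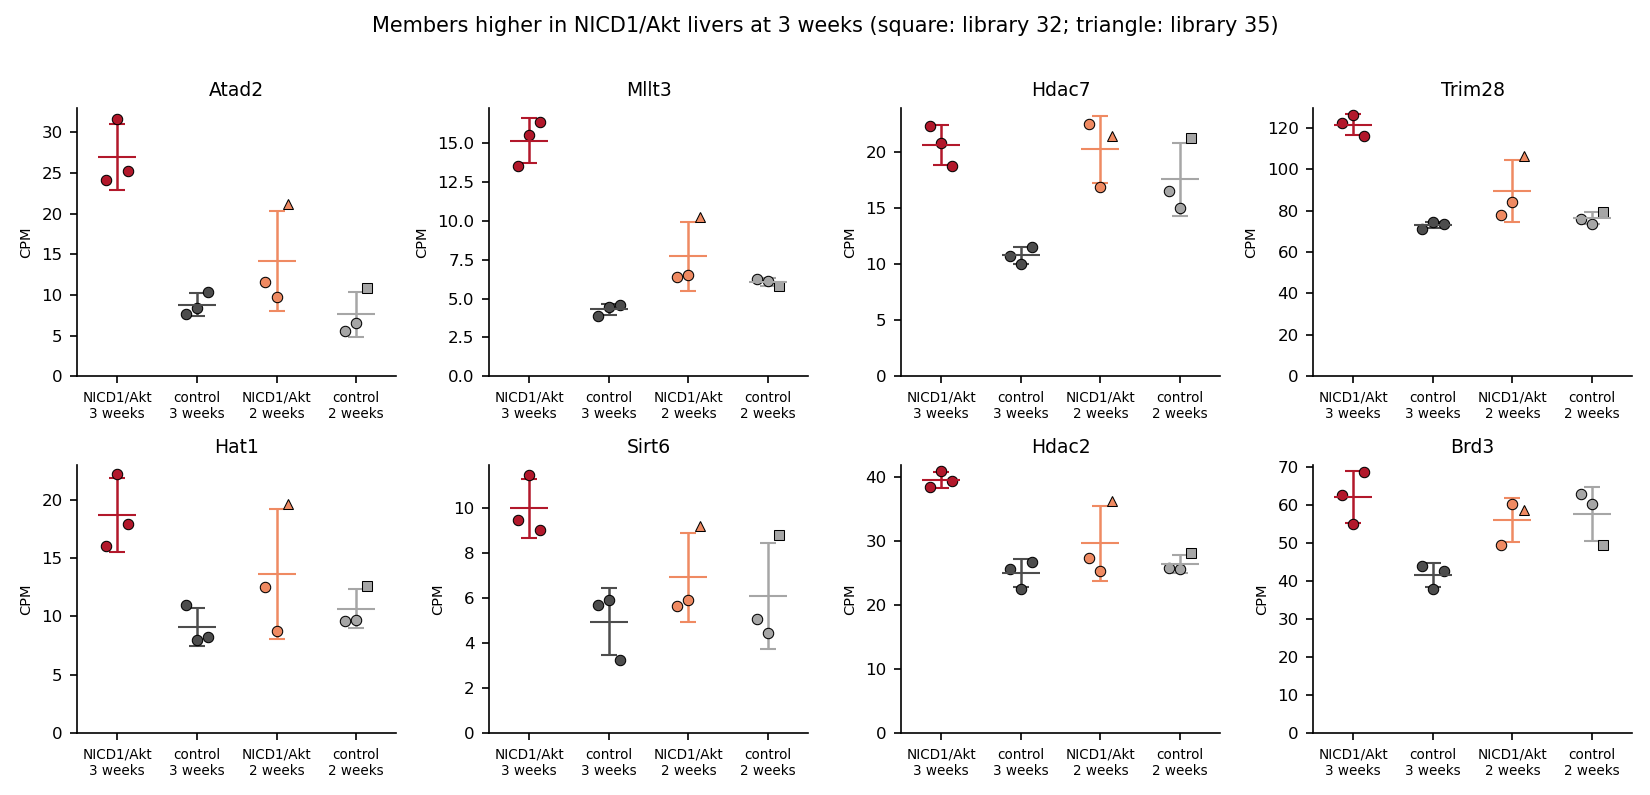
CPM (y axis, from 0) of 8 members that were higher in NICD1/Akt livers at 3 weeks, in the 4 groups (x axis). Each point is a library, the bar the mean of 3 and the whisker the SD. Atad2, Mllt3, Trim28, Hat1, Sirt6 and Hdac2 of the 3-week NICD1/Akt livers lie above all 6 controls, whereas Hdac7 and Brd3 overlap the 2-week controls.

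Hdac4 of the same class had 24.99, 22.6 and 21.1 CPM in NICD1/Akt livers and 18.3, 16.7 and 18.4 CPM in controls at 3 weeks, above all 6 controls, with a log2 fold change of 0.48 (SE 0.11, adjusted p = 0.0033). Hdac5 gave -0.05 (SE 0.13, adjusted p = 0.74), with 28.2 to 36.7 CPM in NICD1/Akt livers and 34.9 to 41.9 CPM in controls. The ratio of Hdac5 to Hdac7 was 1.35 to 1.96 in NICD1/Akt livers and 3.19 to 3.89 in controls at 3 weeks, below all 6 controls. Control library 32 came close, at 1.975 against 1.955 in library 3. In class I, Hdac2, a catalytic subunit of the Sin3, NuRD and CoREST corepressors, had 38.5, 40.9 and 39.4 CPM in NICD1/Akt livers and 25.6, 22.5 and 26.8 CPM in controls, a log2 fold change of 0.78 (SE 0.09, adjusted p = 0.00012). Its partner Hdac1 had 18.2, 19.8 and 18.3 CPM in NICD1/Akt livers and 13.8, 13.2 and 17.5 CPM in controls, without overlap, with 0.46 (SE 0.13, adjusted p = 0.012). Hdac1 did not hold against all 6 controls, where its log2 fold change was 0.07 (adjusted p = 0.75). X-linked Hdac8, a deacetylase of the cohesin subunit SMC3, gave 0.48 (SE 0.18, adjusted p = 0.041), with 4.36, 5.30 and 5.26 CPM in NICD1/Akt livers and 4.23, 3.74 and 3.67 CPM in controls. At 2 weeks Hdac8 had 5.05, 4.14 and 4.48 CPM in NICD1/Akt livers and 5.26, 5.84 and 6.56 CPM in controls, the other order. Its call was lost in 10 of 15 alternatives, among them the omission of library 2, 3, 10, 11 or 12 (0.41 to 0.53). Hdac3, the enzyme of the NCoR and SMRT corepressors, gave 0.22 (SE 0.09, adjusted p = 0.053).

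No class IIb or class IV enzyme passed the test at 3 weeks. Hdac10, a polyamine deacetylase, gave 0.08 (adjusted p = 0.70). X-linked Hdac6, which acts on cytoplasmic tubulin, gave -0.10 (adjusted p = 0.46). Hdac11, the class IV enzyme, had 40.02, 33.1 and 43.1 CPM in NICD1/Akt livers and 49.9, 51.2 and 45.6 CPM in controls at 3 weeks, and 37.8, 58.5 and 43.6 CPM in NICD1/Akt livers and 71.8, 58.9 and 63.6 CPM in controls at 2 weeks. NICD1/Akt livers lay below the controls of their own stage at both stages, with log2 fold changes of -0.22 (adjusted p = 0.11) at 3 weeks and -0.47 (adjusted p = 0.52) at 2 weeks. Hdac9, the least abundant member, had 0.795, 0.920 and 0.885 CPM in NICD1/Akt livers and 0.949, 0.348 and 0.5001 CPM in controls at 3 weeks, with overlap (log2 fold change 0.65, SE 0.40, adjusted p = 0.175).

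Sirtuins divided by enzyme. Sirt3, the main protein deacetylase of mitochondria, had 39.1, 18.5 and 36.8 CPM in NICD1/Akt livers and 67.6, 72.2 and 63.5 CPM in controls at 3 weeks. At 2 weeks it had 55.8, 56.3 and 34.2 CPM in NICD1/Akt livers and 75.8, 69.9 and 70.4 CPM in controls. All 6 NICD1/Akt libraries lay below all 6 controls, with libraries 2 and 35 lowest in their groups. The log2 fold change was -0.99 (SE 0.24, adjusted p = 0.0063) at 3 weeks and -0.56 (SE 0.20, adjusted p = 0.52) at 2 weeks. Sirt5, which removes succinyl and malonyl groups in mitochondria, had 5.11, 4.86 and 6.29 CPM in NICD1/Akt livers and 10.2, 8.79 and 10.8 CPM in controls at 3 weeks, and 8.03, 11.1 and 8.06 CPM in NICD1/Akt livers and 12.6, 14.9 and 16.4 CPM in controls at 2 weeks. The groups did not overlap at either stage, and the log2 fold change was -0.75 (SE 0.16, adjusted p = 0.0032) at 3 weeks and -0.68 (SE 0.20, adjusted p = 0.52) at 2 weeks. Both genes kept a negative sign with totals alone as the scale, at -0.30 for Sirt3 and -0.05 for Sirt5, without passing the test. Sirt4, the third mitochondrial member, gave 0.03 (SE 0.19, adjusted p = 0.91).

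Hepatocyte markers moved in the same direction as Sirt3 and Sirt5. All 10 of 10 tested, Alb and Cps1 among them, were lower at 3 weeks, and their sum was 25534 to 37890 CPM in NICD1/Akt livers and 106321 to 111372 CPM in controls. The lowest sum of the 3-week libraries was that of library 2 and the lowest of the 2-week libraries that of library 35 (62750 CPM). These libraries also had least Sirt3. Other libraries did not follow that order. Libraries 33 and 34 held 142050 and 152158 CPM, more than the 3-week controls, but less Sirt3 than those controls. Control library 32 held 97311 CPM, the least of its group, with 70.4 CPM of Sirt3. Sirt5 had 8.06 CPM in library 35 and 8.03 CPM in library 33. The part of hepatocyte content in these falls was not tested. Among 10 mitochondrial targets of SIRT3 and SIRT5, 8 (80%) were lower and 2 (20%) higher, against 33.1% and 38.9% of all genes tested. Their median log2 fold change was -1.30, but Cps1 stands in both lists. Glud1, glutamate dehydrogenase, gave -1.48 (SE 0.14, adjusted p = 2.97e-05). Idh2, the NADP-dependent isocitrate dehydrogenase, gave 1.42 (SE 0.12, adjusted p = 1.57e-05).

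The nuclear and cytoplasmic sirtuins moved apart. Sirt6, a deacetylase of histone H3 at telomeres and promoters, had 9.47, 11.5 and 9.03 CPM in NICD1/Akt livers and 5.69, 5.92 and 3.25 CPM in controls at 3 weeks, and 5.64, 5.92 and 9.20 CPM in NICD1/Akt livers and 5.06, 4.47 and 8.80 CPM in controls at 2 weeks. Libraries 32 and 35 had the highest values of their 2-week groups. The log2 fold change at 3 weeks was 1.14 (SE 0.23, adjusted p = 0.00205). Sirt2, a mainly cytoplasmic tubulin deacetylase, had 44.5, 43.3 and 46.1 CPM in NICD1/Akt livers and 67.4, 72.5 and 70.9 CPM in controls at 3 weeks, and 65.7, 68.5 and 51.6 CPM in NICD1/Akt livers and 62.9, 68.4 and 61.1 CPM in controls at 2 weeks. It was below all 6 controls at 3 weeks with -0.54 (SE 0.08, adjusted p = 0.00039), and library 35 alone was low at 2 weeks. With totals alone as the scale Sirt2 gave 0.17. Sirt1, a deacetylase of transcription factors and histones, had 16.4, 13.4 and 14.7 CPM in NICD1/Akt livers and 17.4, 19.7 and 21.1 CPM in controls at 3 weeks, and 16.7, 16.6 and 14.7 CPM in NICD1/Akt livers and 15.3, 13.7 and 12.7 CPM in controls at 2 weeks. It gave -0.26 (SE 0.12, adjusted p = 0.0835), and Sirt7, a nucleolar enzyme, -0.22 (SE 0.10, adjusted p = 0.0914) at 3 weeks.

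Within most families of writers the members parted, and the 3 higher and 6 lower writers became 0 lower with totals alone as the scale and 1 higher (Hat1) and 2 lower (Kat2b and Kat8) against all 6 controls. Hat1, which acetylates newly made histone H4 before it is laid down on DNA, had 16.0, 22.2 and 17.9 CPM in NICD1/Akt livers and 10.9, 8.01 and 8.25 CPM in controls at 3 weeks, and 12.6, 8.73 and 19.6 CPM in NICD1/Akt livers and 9.65, 9.73 and 12.6 CPM in controls at 2 weeks. As for Atad2, libraries 2, 35 and 32 were the highest of their groups. The log2 fold change was 1.16 (SE 0.17, adjusted p = 0.00041) at 3 weeks. Kat2b (PCAF), a catalytic subunit of the SAGA and ATAC complexes, had 86.9, 70.3 and 79.9 CPM in NICD1/Akt livers and 135, 141 and 129 CPM in controls at 3 weeks, and 89.2, 114 and 71.5 CPM in NICD1/Akt livers and 111, 101 and 97.4 CPM in controls at 2 weeks. It was below all 6 controls at 3 weeks, with -0.65 (SE 0.11, adjusted p = 0.00062), and gave 0.05 with totals alone as the scale. Its paralog Kat2a (GCN5) had 26.8 to 28.3 CPM in NICD1/Akt livers and 19.9 to 28.9 CPM in controls, with 0.29 (SE 0.13, adjusted p = 0.0848). The ratio of Kat2a to Kat2b was 0.31 to 0.40 in NICD1/Akt livers and 0.14 to 0.21 in controls.

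The paralogs Ep300 and Crebbp, which write histone H3 acetylation at enhancers, moved in opposite directions. Ep300 had 74.5, 64.3 and 65.2 CPM in NICD1/Akt livers and 54.6, 64.7 and 56.2 CPM in controls at 3 weeks, a small overlap and a log2 fold change of 0.34 (SE 0.10, adjusted p = 0.017). Crebbp had 58.6, 49.0 and 52.4 CPM in NICD1/Akt livers and 74.7, 71.98 and 71.8 CPM in controls, without overlap, and gave -0.33 (SE 0.09, adjusted p = 0.0119), or 0.37 with totals alone as the scale. The Ep300 call was lost without library 1 (0.26), 10 (0.28) or 12 (0.30). Neither call held against all 6 controls, where Ep300 gave 0.23 (adjusted p = 0.0803) and Crebbp -0.19 (adjusted p = 0.44). At 2 weeks Crebbp had 56.7, 58.5 and 45.6 CPM in NICD1/Akt livers and 56.2, 45.1 and 45.02 CPM in controls. The ratio of Ep300 to Crebbp was 1.24 to 1.31 in NICD1/Akt livers and 0.73 to 0.90 in controls at 3 weeks, and 1.03 to 1.16 in NICD1/Akt livers and 1.12 to 1.24 in controls at 2 weeks. The 3-week controls were thus the low group in this ratio.

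MYST acetyltransferases also split. Kat5 (TIP60), the enzyme of the NuA4 complex, had 19.99, 22.4 and 17.5 CPM in NICD1/Akt livers and 14.6, 10.8 and 14.4 CPM in controls at 3 weeks, with 0.71 (SE 0.15, adjusted p = 0.0029), but 0.42 (adjusted p = 0.056) against all 6 controls. Kat8 (MOF), which acetylates lysine 16 of histone H4, had 13.8, 13.7 and 13.2 CPM in NICD1/Akt livers and 21.7, 19.2 and 21.6 CPM in controls, below all 6 controls, with -0.50 (SE 0.10, adjusted p = 0.00224) and 0.21 with totals alone as the scale. At 2 weeks Kat8 had 17.7, 17.4 and 15.3 CPM in NICD1/Akt livers and 20.1, 18.6 and 18.6 CPM in controls, again without overlap. Kat6b (MORF) had 23.0, 20.6 and 24.2 CPM in NICD1/Akt livers and 39.9, 31.8 and 41.8 CPM in controls at 3 weeks, and 17.2, 22.4 and 18.3 CPM in NICD1/Akt livers and 20.9, 18.02 and 18.9 CPM in controls at 2 weeks. Only the 3-week controls were high, and Kat6b gave -0.62 (SE 0.12, adjusted p = 0.00197) and 0.08 with totals alone as the scale. Kat6a (MOZ) gave 0.23 (adjusted p = 0.0905) and Kat7 (HBO1) 0.06 (adjusted p = 0.56). Of the p160 coactivators, which recruit Ep300 and Crebbp to nuclear receptors, Ncoa3 had 48.6, 45.2 and 46.7 CPM in NICD1/Akt livers and 78.8, 82.1 and 75.9 CPM in controls at 3 weeks, with -0.63 (SE 0.08, adjusted p = 0.00017). At 2 weeks Ncoa3 had 47.8, 51.4 and 37.0 CPM in NICD1/Akt livers and 43.7, 45.1 and 40.5 CPM in controls. Ncoa1 had 26.7, 24.2 and 25.1 CPM in NICD1/Akt livers and 35.6, 37.3 and 37.8 CPM in controls at 3 weeks. It gave -0.42 (SE 0.08, adjusted p = 0.00193), and Ncoa2 gave -0.28 (SE 0.15, adjusted p = 0.13). All 3 p160 genes turned positive with totals alone as the scale (Ncoa1 0.28, Ncoa2 0.42, Ncoa3 0.07). Against all 6 controls the calls of Kat6b (-0.33, adjusted p = 0.37), Ncoa3 (-0.38, adjusted p = 0.25) and Ncoa1 (-0.33, adjusted p = 0.10) were lost, whereas Kat8 kept its call.

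**Figure D3:**
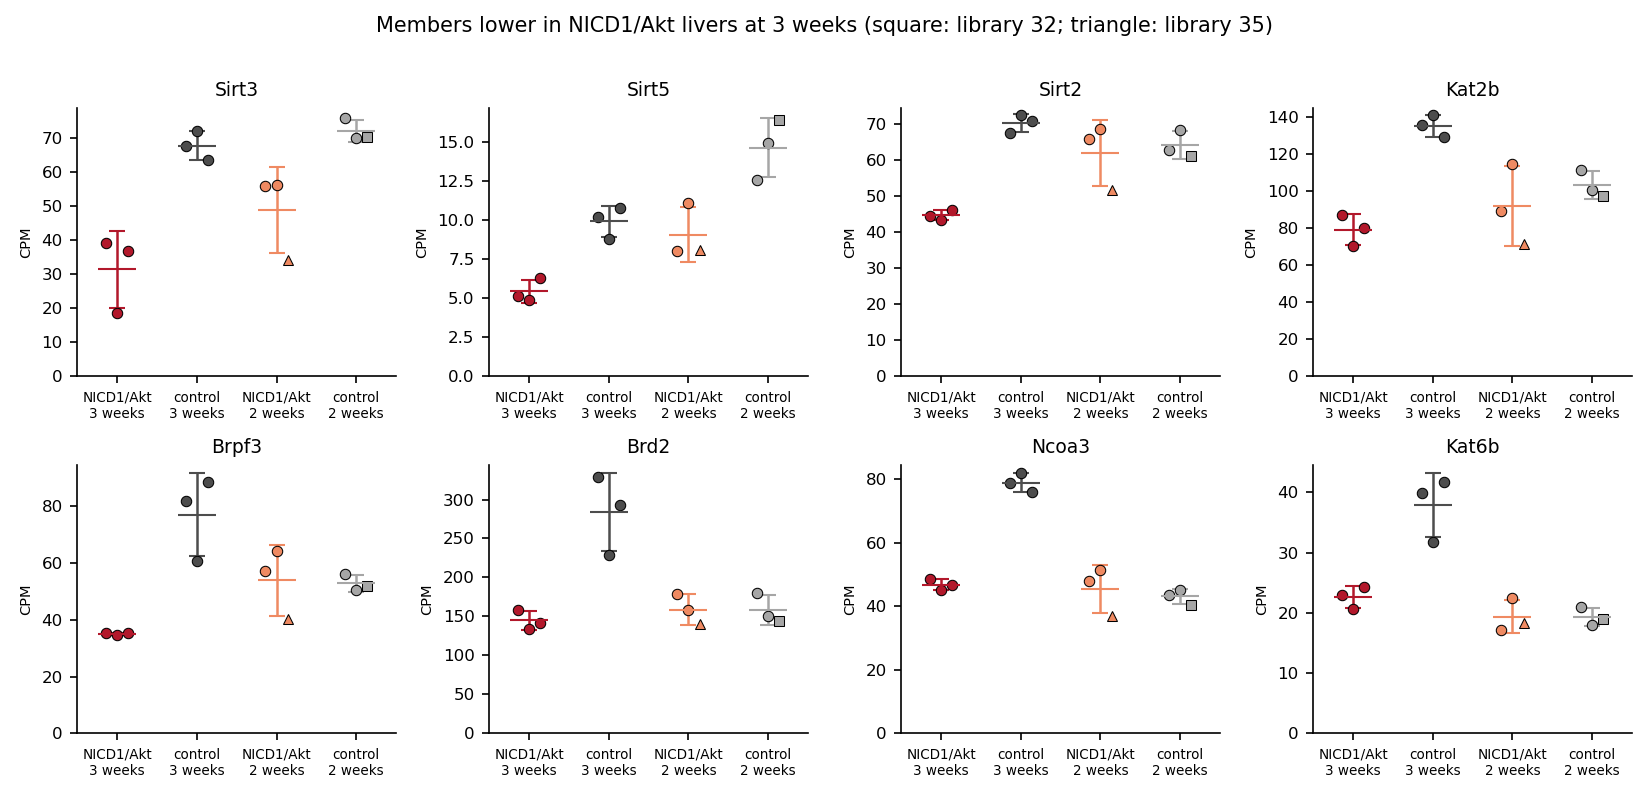
CPM (y axis, from 0) of 8 members that were lower in NICD1/Akt livers at 3 weeks on the TMM scale, in the 4 groups (x axis), with each library as a point, the mean as a bar and the SD as a whisker. Sirt3, Sirt5, Sirt2, Kat2b and Brpf3 of 3-week NICD1/Akt livers lie below all 6 controls, whereas Brd2, Ncoa3 and Kat6b are high in the 3-week controls and overlap among the other 3 groups. With totals alone as the scale Sirt2 (0.17), Kat2b (0.05), Ncoa3 (0.07) and Kat6b (0.08) turn positive.

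Brd2 and Brd3, readers whose paired bromodomains bind acetylated chromatin, moved in opposite directions at 3 weeks on the TMM scale. Brd2 had 159, 134 and 142 CPM in NICD1/Akt livers and 328, 229 and 293 CPM in controls at 3 weeks, and 179, 158 and 140 CPM in NICD1/Akt livers and 181, 150 and 145 CPM in controls at 2 weeks. The 3-week controls were the only high group. Brd2 gave -0.85 (SE 0.15, adjusted p = 0.00092) at 3 weeks and 0.01 (SE 0.16, adjusted p = 0.98) at 2 weeks. Brd3 had 62.7, 55.1 and 68.6 CPM in NICD1/Akt livers and 44.1, 38.0 and 42.6 CPM in controls at 3 weeks, and 49.5, 60.2 and 58.7 CPM in NICD1/Akt livers and 63.0, 60.3 and 49.5 CPM in controls at 2 weeks. It gave 0.70 (SE 0.11, adjusted p = 0.000497) at 3 weeks, and here the 3-week controls were the low group. Neither call held against all 6 controls, where Brd2 gave -0.61 (adjusted p = 0.096) and Brd3 0.33 (adjusted p = 0.14).

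**Figure D4:**
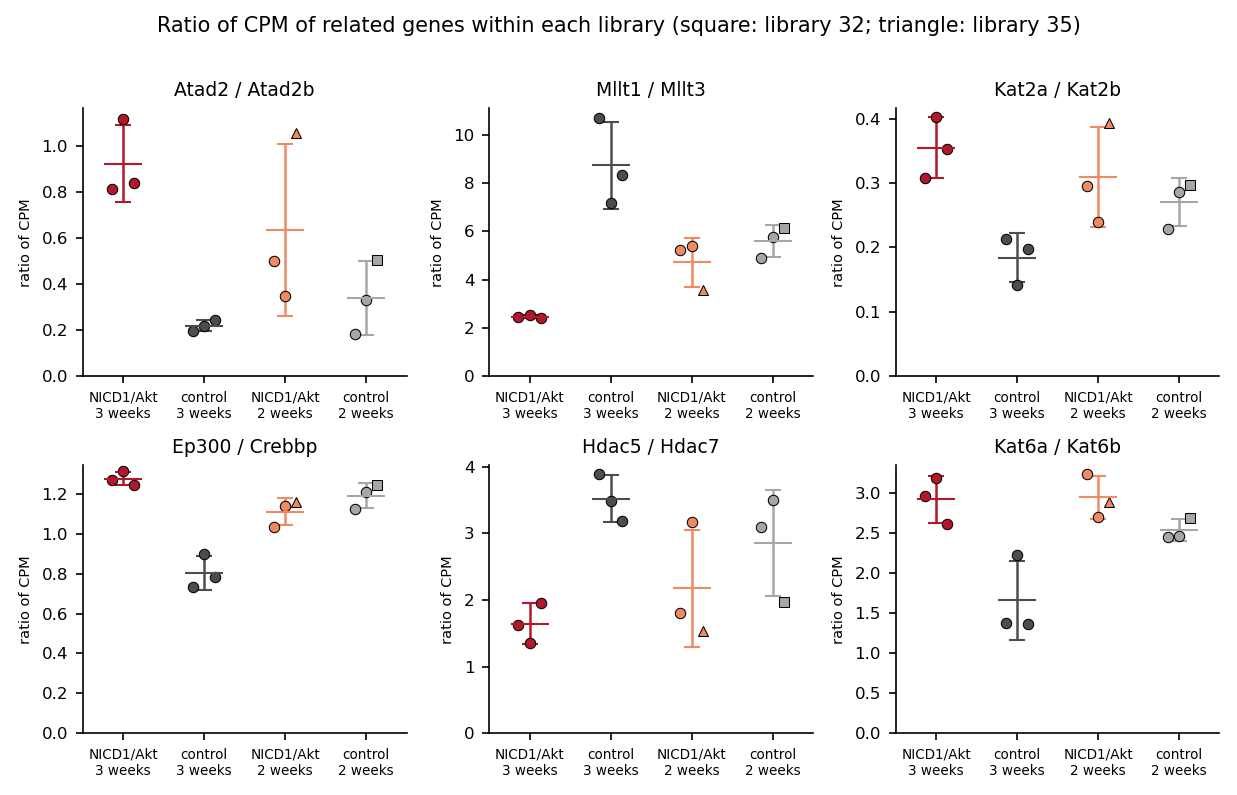
Ratio of the CPM of related genes within each library (y axis, from 0, no unit and not length-corrected) in the 4 groups (x axis), with each library as a point, the mean as a bar and the SD as a whisker. Scaling factors cancel in these ratios. All 6 ratios separate the 3-week groups, and for Atad2 to Atad2b, Mllt1 to Mllt3, Kat2a to Kat2b, Ep300 to Crebbp and Hdac5 to Hdac7 the 3-week NICD1/Akt livers also lie beyond all 6 controls. For Ep300 to Crebbp (1.244 against 1.242) and Hdac5 to Hdac7 (1.955 against 1.975) the nearest control, library 32, was close.

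Of 11 pairs of related genes examined in this way, 10 (90.9%) had ratios that did not overlap between NICD1/Akt livers and controls at 3 weeks, Trim24 to Trim33 being the exception, against 76.2% of all pairs of genes tested. Beyond all 6 controls lay 7 pairs (63.6%), against 51.4% of all pairs. At 2 weeks 2 pairs (18.2%) did not overlap, against 15.4% of all pairs, Hdac1 to Hdac2 (0.56 to 0.70 in NICD1/Akt livers and 0.73 to 0.88 in controls) and Kat6a to Kat6b (2.71 to 3.24 in NICD1/Akt livers and 2.45 to 2.69 in controls). An exact permutation test of 3 against 3 libraries cannot give a p below 0.10, so these ratios are given as values. By CPM, NICD1/Akt livers of 3 weeks lay above all 6 controls in 9 members (18%), against 26.8% of all genes tested, and below all 6 in 9 members (18%), against 25.4%. The 9 above were Atad2, Mllt3, Hat1, Sirt6, Hdac2, Hdac4, Brd8, Trim28 and Trim33. The 9 below were Sirt3, Sirt5, Sirt2, Kat2b, Kat8 and Brpf3, with Sirt7, Brd7 and Hdac11, which did not pass the test at 3 weeks.

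Bromodomain subunits of larger complexes differed among themselves. Brpf3, a scaffold of MYST complexes, had 35.4, 34.7 and 35.4 CPM in NICD1/Akt livers and 81.8, 60.8 and 88.7 CPM in controls at 3 weeks, and 57.2, 64.4 and 40.1 CPM in NICD1/Akt livers and 56.1, 50.5 and 51.97 CPM in controls at 2 weeks. All 3-week NICD1/Akt libraries were below every other library. Brpf3 gave -1.01 (SE 0.14, adjusted p = 0.00024), within error of Sirt3, and -0.89 against all 6 controls, and its sign stayed negative with totals alone as the scale (-0.31). The other scaffolds Brpf1 (-0.19, SE 0.20, adjusted p = 0.40) and Brd1 (0.04, SE 0.13, adjusted p = 0.81) did not pass. Brd8, a subunit of NuA4, had 34.8, 40.1 and 34.5 CPM in NICD1/Akt livers and 17.4, 20.4 and 16.7 CPM in controls at 3 weeks, and 29.3, 26.4 and 37.0 CPM in NICD1/Akt livers and 25.8, 25.3 and 26.2 CPM in controls at 2 weeks. Both groups of NICD1/Akt livers lay above their controls, with 1.12 (SE 0.11, adjusted p = 4.58e-05) at 3 weeks. Brd9, a subunit of a SWI/SNF remodeller, had 17.6, 14.5 and 16.9 CPM in NICD1/Akt livers and 11.7, 10.4 and 11.9 CPM in controls, with 0.65 (SE 0.13, adjusted p = 0.00178), but 0.32 (adjusted p = 0.13) against all 6 controls. Brd7, of another SWI/SNF form, gave -0.15 (SE 0.08, adjusted p = 0.12).

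All 3 TRIM readers, which pair a PHD finger with a bromodomain, rose at 3 weeks, although Trim24 reversed when set against all 6 controls. Trim28 (KAP1), the corepressor of KRAB zinc finger proteins, had 122, 126 and 116 CPM in NICD1/Akt livers and 71.2, 74.3 and 73.6 CPM in controls at 3 weeks, and 78.1, 84.4 and 107 CPM in NICD1/Akt livers and 75.8, 73.7 and 79.5 CPM in controls at 2 weeks. The 3-week NICD1/Akt libraries were the highest 3 of 12 and library 35 was next. Trim28 gave 0.86 (SE 0.09, adjusted p = 4.65e-05). Trim33, a regulator of TGF-beta signalling through Smad proteins, had 47.3, 49.2 and 42.5 CPM in NICD1/Akt livers and 31.1, 35.9 and 30.4 CPM in controls at 3 weeks, with 0.64 (SE 0.10, adjusted p = 0.00055). At 2 weeks Trim33 had 31.01, 29.4 and 36.8 CPM in NICD1/Akt livers and 25.1, 23.9 and 28.0 CPM in controls, without overlap. Trim24, a retinoic acid receptor cofactor whose loss leads to liver tumors in mice, gave 0.85 (SE 0.15, adjusted p = 0.0012) at 3 weeks from 25.3, 27.2 and 22.0 CPM in NICD1/Akt livers and 15.6, 11.8 and 17.4 CPM in controls. Against all 6 controls, Trim24 gave -0.69 (adjusted p = 0.43).

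At 2 weeks no member passed. Of 13041 genes tested 0% were called (0 genes with edgeR's quasi-likelihood test, 12 with its likelihood ratio test, 27 with DESeq2 and 0 with limma-voom), and 0 of 49 members were called by any of these tools. At an unadjusted p under 0.05, 1 member (2.04%) was higher, against 4.90% of genes, and 3 members (6.12%) were lower, against 3.69% of genes. The higher one was Trim33 (0.35, SE 0.14) and the lower ones were Sirt5, Sirt3 and Hdac11, each with an adjusted p of 0.52. Without library 32, the control high in biliary markers, Notch1 and Akt1, 2 members were higher and 2 lower at that level, and over the omission of each of the 6 libraries in turn there were 0 to 3 higher and 1 to 4 lower. Atad2 then gave 1.26 (SE 0.40, adjusted p = 0.22), and without library 35 it gave 0.48 (SE 0.32, adjusted p = 0.80), so the 2-week value of Atad2 moved with either library.

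The effect of NICD1/Akt differed between the stages for 16 members, in a fit of all 12 libraries. It was higher at 3 than at 2 weeks for 6 members (12%; 15.0% of 13829 genes) and lower for 10 members (20%; 15.8% of genes). Higher were Mllt3 (1.46), Brd8 (0.74), Hdac7 (0.73), Hdac8 (0.73), Brd3 (0.62) and Trim28 (0.50). Among the lower were Brpf3 (-1.16), Brd2 (-0.97), Ncoa3 (-0.83), Kat6b (-0.74), Brwd1 (-0.65), Sirt2 (-0.60), Sirt1 (-0.58), Crebbp (-0.58) and Kat8 (-0.43). The differences of Mllt3 and Brd8 passed in all 19 alternatives, whereas those of Kat8 (15 of 19), Hdac8 (13), Trim28 (12), Crebbp (11), Sirt1 (10), Brwd1 (8), Brd3 (7) and Hdac7 (6) were lost in the number given. The counts moved with single libraries. Without library 35 there were 11 higher and 12 lower, and without library 32 there were 4 higher and 6 lower. The higher differences numbered 2 without library 1 or 11 and 3 without library 2, 3, 10, 12, 31, 33 or 34. The lower ones numbered 5 without library 3 or 33 and 6 without library 2, 11, 12, 31 or 34.

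Controls of the stages themselves differed, which enters each stage difference. Of 50 members, 14 (28%) were higher in controls of 3 than of 2 weeks, against 17.4% of genes, and 10 (20%) were lower, against 20.4% of genes. In 12 members (24%) the 3-week controls lay above the other 9 libraries, against 17.9% of genes, and in 6 members (12%) below them, against 17.1%. Those above included Brd2, Brwd1, Brwd3, Atad2b, Crebbp, Kat2b, Kat6b, Ncoa1, Ncoa2, Ncoa3 and Sirt1. Those below were Brd3, Brd8, Brd9, Hdac7, Mllt3 and Trim24. Among the higher ones, Kat6b differed between controls by 0.97 (SE 0.14, adjusted p = 0.000405), Brwd1 by 0.88 (SE 0.13, adjusted p = 0.00061) and Brd2 by 0.84 (SE 0.16, adjusted p = 0.00224). Their log2 fold changes for NICD1/Akt at 3 weeks, which share these controls, are given above. Without library 32, 10 members were higher and 7 lower. Without library 30 or 31, 9 were higher, and 6 were lower without library 10 and 5 without library 12.

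Trim24 and Hdac9 had the largest differences between controls. Trim24 at 2 weeks had 77.5, 59.0 and 39.5 CPM in NICD1/Akt livers and 85.4, 84.8 and 24.6 CPM in controls. Its low library among the 2-week controls was library 32, near the 22.0 to 27.2 CPM of NICD1/Akt livers of 3 weeks. The difference of 3-week from 2-week controls was -2.12 (SE 0.41, adjusted p = 0.00273) for Trim24 and -2.05 (SE 0.41, adjusted p = 0.00324) for Hdac9. Hdac9 at 2 weeks had 2.39, 1.92 and 1.30 CPM in NICD1/Akt livers and 3.06, 2.74 and 1.70 CPM in controls, library 32 again the lowest of its group. Y-linked Ddx3y, an RNA helicase gene, had 61.1, 58.5 and 52.1 CPM in NICD1/Akt livers and 120, 126 and 124 CPM in controls at 3 weeks, and 0.40, 0.074 and 0 CPM in NICD1/Akt livers and 0, 0 and 57.1 CPM in controls at 2 weeks. Trim24 thus reached at most 27.2 CPM in the 7 libraries with over 1 CPM of Ddx3y and at least 39.5 CPM in the other 5. Stage, Y-linked RNA and, for library 32, the reads of Notch1 and Akt1 cannot be told apart in this pattern. X-linked Brwd3 did not follow it, with 11.7 CPM in library 32 against 12.8 and 13.3 CPM in the other 2-week controls and 22.7 to 23.3 CPM in the 3-week controls (0.87, SE 0.13, adjusted p = 0.00056).

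**Figure D5:**
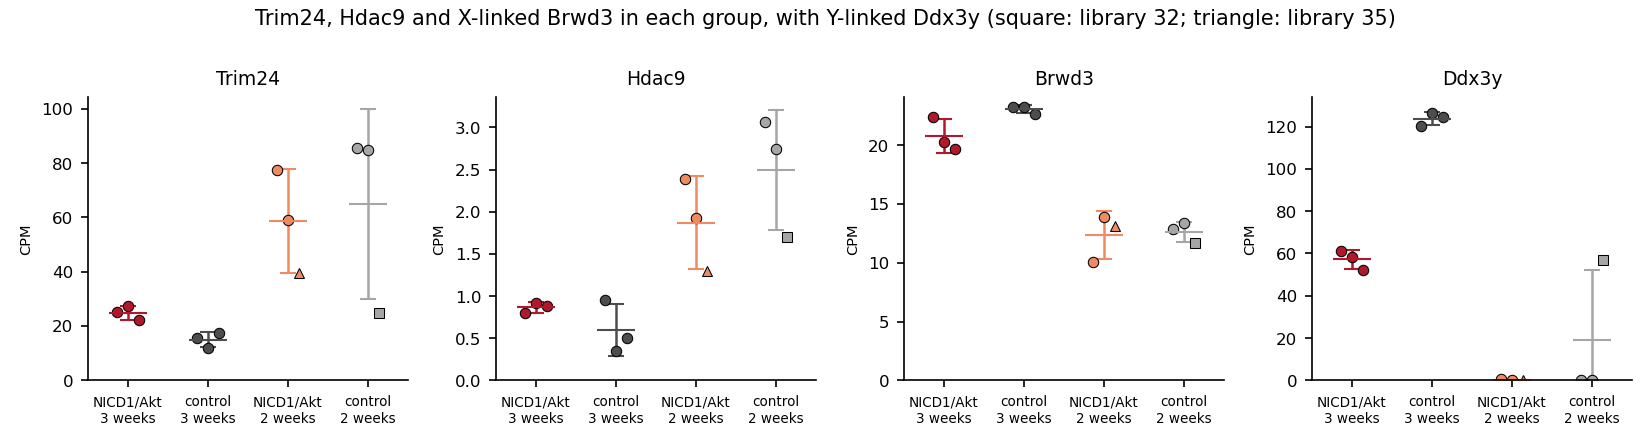
CPM (y axis, from 0) of Trim24, Hdac9, X-linked Brwd3 and Y-linked Ddx3y in the 4 groups (x axis), with each library as a point, the mean as a bar and the SD as a whisker. In Trim24 library 32 (square, 24.6 CPM) lies with the 3-week libraries, in Brwd3 (11.7 CPM) with the 2-week libraries, and in Ddx3y (57.1 CPM) with the 3-week NICD1/Akt livers.

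Partners and substrates of these enzymes were counted in the same fit at 3 weeks. The background over all genes was 38.9% higher and 33.1% lower. Of 26 tested subunits of deacetylase corepressors, 11 (42.3%) were higher and 8 (30.8%) lower, close to that background. Kdm1a, the demethylase of CoREST, gave 0.91 (SE 0.09, adjusted p = 5.64e-05) and Sin3b, a Sin3 scaffold, 0.64 (SE 0.09, adjusted p = 0.00022). Of 33 subunits of acetyltransferase complexes, 9 (27.3%) were higher and 5 (15.2%) lower, both below the background, with Tada2a (1.37, SE 0.15), Supt20 (1.10, SE 0.10) and Yeats2 (1.09, SE 0.11) having the smallest adjusted p. Of 18 tested other acetyl-lysine readers, 10 (55.6%) were higher and 2 (11.1%) lower, with the smallest adjusted p for Zmynd8 (1.29, SE 0.09, adjusted p = 5.61e-06). Of 8 genes of acetyl-CoA and NAD supply, 0 were higher and 5 (62.5%) lower, with a median log2 fold change of -0.92 against 0.06 over all genes. All 10 hepatocyte markers were lower as well, with a median of -1.64. Acly, which makes cytosolic acetyl-CoA from citrate, had 128, 120 and 140 CPM in NICD1/Akt livers and 315, 316 and 348 CPM in controls, and gave -1.22 (SE 0.11, adjusted p = 2.31e-05). Other cell types changed as well, with all 8 macrophage markers, all 7 tested biliary markers and 5 of 7 stellate cell markers higher, and their part in the member results was not tested.

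Promoter windows of a RefSeq set (GRCm38.p6), 250 bases before to 50 bases after each start, were read. The set held 55 windows for 40 of 50 members and none for the others. They were searched on both strands for the E2F words TTTCCCGC, TTTCGCGC, TTTGCCGC and TTTGGCGC and for the RBPJ word GTGGGAA, since E2F factors act at genes of dividing cells and NICD1 acts through RBPJ. The words of the E2F set do not contain the RBPJ word. E2F words stood in 4 member windows (7.27%), those of Brd7, Brpf3, Kat2a and Sirt4, against 2.26% of 32851 windows. The RBPJ word stood in 2 member windows (3.64%), those of Sirt6 and Sirt7, against 6.38% of all windows. The 150 bases before the start are shown for Brpf3, which fell, and for Sirt7, which did not pass the test, with the matched word in capitals, 5′ to 3′ on the gene's strand. A match, or its absence, describes the letters of these windows only.
Brpf3 (chr17:28800976-28801125, plus strand): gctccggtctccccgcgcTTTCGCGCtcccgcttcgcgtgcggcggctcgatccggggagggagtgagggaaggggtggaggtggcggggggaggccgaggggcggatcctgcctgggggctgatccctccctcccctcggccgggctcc
Sirt7 (chr11:120625015-120625164, minus strand): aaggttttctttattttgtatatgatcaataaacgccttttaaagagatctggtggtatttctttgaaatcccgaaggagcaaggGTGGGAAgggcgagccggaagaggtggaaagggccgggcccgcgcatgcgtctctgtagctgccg
The Brpf3 word begins 132 bases and the Sirt7 word 65 bases before the start. Neither gene rose at 3 weeks. Sirt6, which did, held the RBPJ word 81 bases before its start, whereas no match was found for Mllt3 or Hdac7. A member without a window could show no match.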

How the data were processed

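Polyadenylated liver RNA was sequenced from 12 libraries, with groups taken from the sample labels. Per the file headers and values, the authors deposited raw counts, 1 table a stage, with whole numbers of reads for each gene. STAR, mm10 and HTSeq stand in the described methods, whereas GRCm39, STAR 2.7 and Subread 2.0.6 stand in the processing notes of the submitters. The pipeline behind the counts is not settled, so no coordinates were taken from the count tables. Symbols came from GENCODE M21 by gene ID, for 21573 of 21807 IDs, and exon lengths from the same annotation. Count columns not used numbered 0.

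Genes were kept by the default filterByExpr, scaled by TMM and tested with glmQLFit and glmQLFTest of edgeR 4.0.16 in R 4.3.3. P-values were adjusted by Benjamini-Hochberg over all genes tested, at a threshold of 0.05. Each stage was fitted on its 6 libraries. The difference between stages and the comparison of controls came from all 12 libraries, whose TMM factors also gave the CPM. SE is the absolute log2 fold change divided by the square root of F. Unless a tool is named, p-values are from this test. Replicates of a group differed beyond sampling noise (chi-square per gene 4.77 to 129.7).

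Alternatives were edgeR's likelihood ratio test, DESeq2 1.42.0, limma-voom 3.58.1, other scaling, no filter on low counts, 1 fit of all libraries, all 6 controls and the omission of each library. The members and lists were chosen with earlier results of these data known. Values in each library were given for Atad2, Hdac7, Sirt3, up to 12 called members in each direction at 3 weeks, members called in the difference between stages and the 4 with the largest difference between controls. Other genes named were up to 3 per list with the smallest adjusted p. From the list of corepressor subunits 1 of 28 names, and Xist, had no matching symbol and were not analysed here. Of the 50 members, 1 enters the counts and is not reported here by name.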

Additional observations from a re-analysis of the deposited data

Results flagged for a closer look

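The effect of NICD1/Akt differed between 3 and 2 weeks, by the interaction term over 12 libraries (edgeR's quasi-likelihood test), for 16 members, 15 of which are given here. The log2 difference was positive for Mllt3 (1.46, adjusted p = 0.0058), Brd8 (0.74), Hdac7 (0.73), Hdac8 (0.73), Brd3 (0.62) and Trim28 (0.50). It was negative for Brpf3 (-1.16, adjusted p = 0.0093), Brd2 (-0.97), Ncoa3 (-0.83), Kat6b (-0.74), Brwd1 (-0.65), Sirt2 (-0.60), Sirt1 (-0.58), Crebbp (-0.58) and Kat8 (-0.43). Of 19 alternatives, Kat8 was lost in 15, Hdac8 in 13, Trim28 in 12, Crebbp in 11, Sirt1 in 10, Brwd1 in 8, Brd3 in 7 and Hdac7 in 6, and Mllt3 and Brd8 in 0. Libraries of 2 and 3 weeks differ in Y-linked RNA, and library 32 has the most Notch1 and Akt1 reads of the 2-week controls. The part of either in these differences was not tested beyond the omission of library 32, which left 4 positive and 6 negative. Controls of the stages also differed, with 14 members higher and 10 lower in those of 3 weeks, which enters each difference. With totals alone as the scale, 0 of the 10 negative differences passed.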

How the results depend on the processing

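The calls of 10 of 18 higher members at 3 weeks and 0 of 14 lower ones held under all 15 alternatives, and 11 of the 14 held apart from the scale by totals alone and the use of all 6 controls. With totals alone as the scale, 40 members were higher and 0 lower at 3 weeks, 15 had a higher and 0 a lower effect at 3 than at 2 weeks, and 8 were higher in controls of 3 weeks. These values became positive at 3 weeks: Atad2b 0.37, Brd7 0.56, Brpf1 0.52, Brwd1 0.26, Brwd3 0.68, Crebbp 0.37, Hdac11 0.48, Hdac5 0.65, Hdac6 0.61, Kat2b 0.0502, Kat6b 0.0787, Kat8 0.21, Ncoa1 0.28, Ncoa2 0.42, Ncoa3 0.0721, Sirt1 0.44, Sirt2 0.17 and Sirt7 0.49. So did the stage differences of Crebbp (0.0450), Kat8 (0.19), Sirt1 (0.0280) and Sirt2 (0.0306). With all 6 controls, 10 members were higher and 9 lower at 3 weeks, but 8 of the 14 lower calls were lost, among them Crebbp, Ncoa1, Ncoa3, Kat6b, Brwd1, Atad2b and Brd2, and 3 were new (Sirt7, Brd7 and Hdac11), and Trim24 reversed to -0.69. Upper quartile factors left 4 members with a lower effect at 3 than at 2 weeks, and 8 higher and 16 lower between controls. Omission of single libraries gave 2 to 11 higher and 5 to 12 lower stage differences, 9 to 12 higher and 5 to 8 lower members between controls, 16 to 19 higher and 13 to 14 lower members at 3 weeks, and 0 at 2 weeks. The cause was not tested. No paired analysis was possible because the groups share no replicate numbers. With 3 libraries per group and overlapping values at 2 weeks, small changes there are below what these data resolve.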
